A study of Homo sapiens with 4 samples.

Results

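Messenger RNA levels in BEAS-2B cells that had been transfected and then given bacterial lipopolysaccharide (LPS) were compared with those in untreated cells of the same line. BEAS-2B is an immortalised human bronchial epithelial line, labelled wild type in genotype in every library, and was grown in BEBM medium with the BEGM supplement kit. The comparison took 3 of the 4 RNA sequencing libraries of the study: the untreated control, the library of cells transfected with siRNA against occludin for 24 h and then given LPS for 2 h (siOCLN+LPS), and the library labelled as wild-type occludin for 24 h and then LPS for 2 h (wtOCLN+LPS). The fourth library, LPS alone with no transfection named, is given beside them as a level. Each group was 1 library, and the control and LPS labels name neither a transfection nor a mock transfection. Every difference from control therefore combines transfection, the transfected molecule and LPS, and these cannot be told apart here.

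Levels are in CPM, counts per 1000000 counts of the library. A gene was tested when it reached 1 CPM in any of the 3 libraries, which left 13648 of 24424 gene symbols, and the text calls it higher or lower if both transfected libraries were at least 2-fold from control in the same direction on the (CPM + 1) scale. Log2 ratios are on that scale, which understates changes of low genes. Folds are ratios of CPM without the added 1, and the range in parentheses is an exact 95% interval (Clopper-Pearson) that covers counting error only. No test was run: each group is 1 library, and siOCLN+LPS and wtOCLN+LPS were transfected with different molecules, so they are not replicates of each other. The statements below compare libraries. Library totals ran from 13867494 to 17500031 counts, and 12887 to 13306 genes reached 1 CPM. All 9 bronchial epithelial markers on the list used were at 1 CPM or more in every library. Their summed level was 2306 CPM in control, 2029 in the LPS library, 3565 in siOCLN+LPS and 3774 in wtOCLN+LPS. KRT7 was the highest of them in each, at 777, 742, 1205 and 1305 CPM. Of the 9, 8 lay above control in both transfected libraries, 4 by at least 2-fold, and 1 lay below in both. None of 9 leukocyte markers reached 1 CPM in any library. Of 7 ciliated cell markers, 1 reached 1 CPM in each library. This was CCDC39, at 2.89 CPM in control, 2.16 in the LPS library, 1.77 in siOCLN+LPS and 1.66 in wtOCLN+LPS. The ciliated cell regulator FOXJ1 had 0 counts in all 4. Of 7 endothelial markers, CLDN5 reached 1 CPM in control (1.64) and CDH5 in the LPS library (1.08), and none did in the transfected libraries.

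OCLN encodes occludin, a membrane-spanning protein of tight junctions and the gene that both transfections addressed. Its level was 55.4 CPM in control, 50.4 in the LPS library, 21.0 in siOCLN+LPS and 29.7 where the label is wtOCLN+LPS. Both transfected libraries lay below control, at 0.379 of its level in siOCLN+LPS (0.334 to 0.428) and 0.535 in wtOCLN+LPS (0.479 to 0.597). The second value goes against what the label wtOCLN implies. That library is named by its label alone throughout, and no direction in it is read as one of raised occludin.

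LPS is sensed by TLR4 with its partners CD14 and LY96, and the signal reaches the NF-kB family of transcription factors, which switch on cytokine genes together with their own inhibitors. Interferon-stimulated genes are switched on after interferon binds its receptors, and nucleic acid inside a cell is a known trigger of interferon production. The integrated stress response works through ATF4, which raises the genes for amino acid synthesis, amino acid import and tRNA charging when amino acids are short or the endoplasmic reticulum is stressed. In each of these pathways the transcription factor binds a short DNA motif in the promoters of its targets.

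Of the 13648 genes, 435 were at least 2-fold higher than control in both transfected libraries (3.19% of those tested) and 473 were at least 2-fold lower in both (3.47%), 908 in all (6.65%). The higher genes included the larger changes: 100 genes were at least 4-fold higher in both and 25 at least 4-fold lower, and at 8-fold the numbers were 37 and 2. In siOCLN+LPS taken by itself 535 genes were higher (3.92%) and 739 lower (5.41%), and in wtOCLN+LPS 531 were higher (3.89%) and 666 lower (4.88%). The shared calls were 81.3% and 81.9% of the higher genes of siOCLN+LPS and wtOCLN+LPS, and 64.0% and 71.0% of their lower genes. No gene was 2-fold higher in one and 2-fold lower in the other, but both ratios use the same control library, so this is no independent support. The balance between the directions depended on the scaling. Higher genes made up 47.9% of the calls with library totals, 74.5% with TMM scaling (648 higher, 222 lower), 74.5% with median ratio scaling (648 and 222) and 70.1% with upper quartile scaling (593 and 253). The median log2 ratio over all tested genes, averaged over the transfected libraries, was -0.23 on library totals, the value to read list medians against, and 0.01 after TMM scaling. Counts of list members called higher or lower are to be read against the 3.19% and 3.47% of all tested genes.

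**Figure D1:**
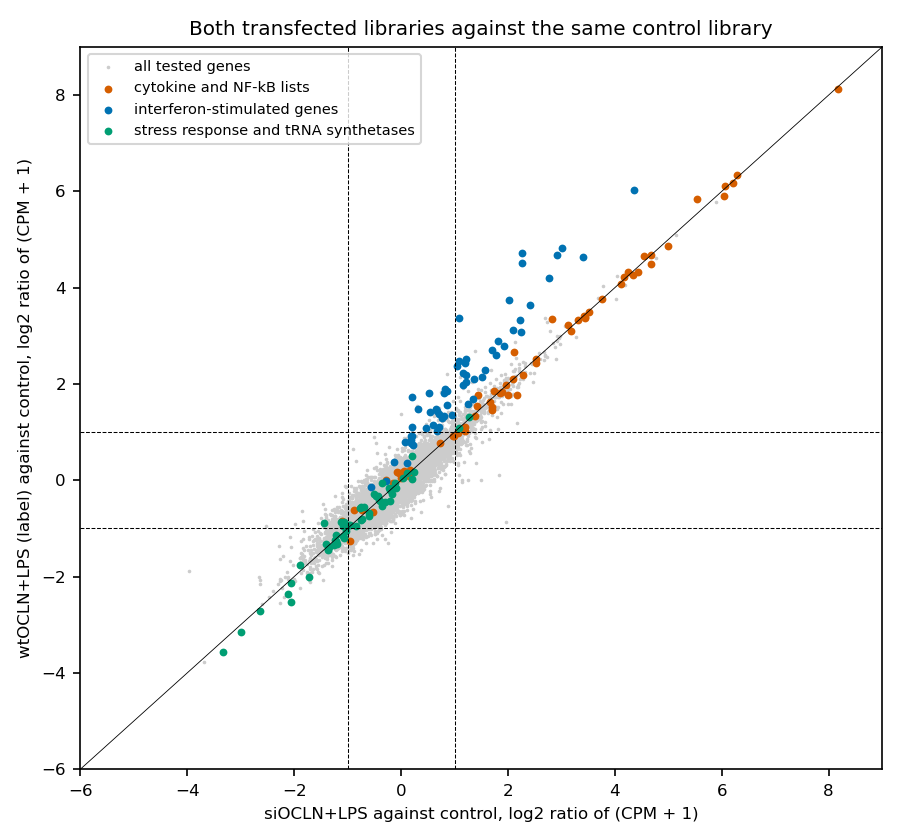
Log2 ratio of (CPM + 1) to the control library for each of 13648 tested genes, in siOCLN+LPS (horizontal axis) and in the library labelled wtOCLN+LPS (vertical axis), with the dashed lines at 2-fold and the solid line at equal ratios. The 23 cytokine and 20 NF-kB list members past 2-fold lie near the line of equal ratios at the upper right, all 59 interferon-stimulated genes lie above that line, and 16 of 37 stress response and 5 of 20 tRNA synthetase genes are past 2-fold at the lower left.

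Promoter sequences of genes from 3 of the groups described below are shown first, chosen as examples that hold the motif searched for in that group. They are RefSeq promoters on GRCh38.p14, 250 bases before to 50 bases after the annotated start, 5′ to 3′ on the gene's own strand, and capitals mark the motif match. ISG15 (chr1:1013247-1013546, plus strand) is an interferon-stimulated gene with 2 overlapping matches to the interferon response motif, GAAA repeated after any 2 bases, beginning 113 and 107 bases before the start. CXCL8 (chr4:73740319-73740618, plus strand) and CXCL1 (chr4:73869143-73869442, plus strand) are chemokine genes with a match to the NF-kB motif GGANTTTCC, 91 and 78 bases before the start. ASNS (chr7:97872359-97872658, minus strand) is an amino acid synthesis gene with a match to TGATGNAA, the ATF4/CEBP motif, 68 bases before the start.
ISG15: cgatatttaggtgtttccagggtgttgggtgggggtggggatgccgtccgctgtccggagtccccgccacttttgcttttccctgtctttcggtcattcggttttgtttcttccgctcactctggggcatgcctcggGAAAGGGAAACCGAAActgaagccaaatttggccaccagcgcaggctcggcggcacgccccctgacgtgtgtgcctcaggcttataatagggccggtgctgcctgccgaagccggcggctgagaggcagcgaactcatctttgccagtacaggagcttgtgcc
CXCL8: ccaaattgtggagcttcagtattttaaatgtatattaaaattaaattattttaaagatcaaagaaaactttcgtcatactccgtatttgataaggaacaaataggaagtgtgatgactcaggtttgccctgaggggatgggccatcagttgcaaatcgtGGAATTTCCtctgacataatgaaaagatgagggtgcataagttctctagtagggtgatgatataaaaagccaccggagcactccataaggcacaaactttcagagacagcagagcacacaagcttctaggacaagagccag
CXCL1: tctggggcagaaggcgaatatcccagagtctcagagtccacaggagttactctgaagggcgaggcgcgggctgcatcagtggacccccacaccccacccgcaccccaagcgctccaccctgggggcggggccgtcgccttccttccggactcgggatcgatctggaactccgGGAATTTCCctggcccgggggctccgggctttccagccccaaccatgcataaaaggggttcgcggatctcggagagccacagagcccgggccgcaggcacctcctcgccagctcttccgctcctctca
ASNS: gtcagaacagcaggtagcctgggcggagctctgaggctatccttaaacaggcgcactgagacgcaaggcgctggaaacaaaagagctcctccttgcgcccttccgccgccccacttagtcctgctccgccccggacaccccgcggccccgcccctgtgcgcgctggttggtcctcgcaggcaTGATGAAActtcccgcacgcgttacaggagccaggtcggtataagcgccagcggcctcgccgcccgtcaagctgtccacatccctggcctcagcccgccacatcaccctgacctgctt

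RefSeq promoters were matched by symbol for 10136 of the 13648 tested genes, and motifs were searched on both strands. The interferon response motif was present in 16 of the 24 matched promoters of interferon-stimulated genes that were higher in both libraries (66.7%), against 2.89% of all matched promoters. The 16 were BST2, DDX60, DDX60L, EPSTI1, GBP1, IFI27, IFI44, IFI44L, IFI6, IFIT1, IFIT3, IFITM1, IFITM3, ISG15, MX1 and OAS3. GGANTTTCC was present in 16 of 36 promoters of the higher cytokine and NF-kB list genes (44.4%), against 1.66% of all, among them CXCL1, CXCL2, CXCL3, CXCL5, CXCL6, CXCL8, IL6, NFKBIA, NFKBIZ and TNFAIP3. TGATGNAA was present in 4 of 15 promoters of the lower stress response and tRNA synthetase genes (26.7%), namely AARS, ASNS, SLC3A2 and SLC7A1, against 1.65% of all. Over all 326 matched promoters of genes higher in both libraries, the shares were 11.3% for the interferon motif, 8.28% for the NF-kB motif and 3.07% for the ATF4/CEBP motif. Over the 326 matched promoters of genes lower in both they were 1.23%, 0% and 3.99%. The sets were chosen by their change, and the pathway sets also from lists of genes known for that pathway. A list of known pathway genes can be rich in the pathway's motif whatever its members did here. Shares for list members that did not pass 2-fold were not computed, so no conclusion on the change is drawn from the contrast with all promoters. The shares are a description of letters in these windows and not of binding.

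Secreted inflammatory factors led the higher genes. CCL2, a chemokine for monocytes, was at 2.33 CPM in control, 176 in the LPS library, 958 in siOCLN+LPS and 934 in wtOCLN+LPS, which made it 412-fold (298 to 585) and 401-fold (291 to 570) higher than control. Both transfected libraries stood above the LPS library as well. CXCL8, which attracts neutrophils, was at 24.5 CPM in control, 1657 in the LPS library, 2000 in siOCLN+LPS and 2075 in wtOCLN+LPS, 81.5-fold (73.8 to 90.3) and 84.6-fold (76.5 to 93.7) above control. CXCL1, another neutrophil chemokine, was at 22.8, 962, 1758 and 1721 CPM in the same order. For these genes the 3 LPS libraries were all far above control, and the transfected libraries lay close together.

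Of 41 listed cytokines and chemokines, 32 were tested, and 23 of these were higher in both transfected libraries and none lower, with a median log2 ratio of 2.18. By role, all 6 neutrophil chemokines, 5 of 8 tested chemokines for monocytes, dendritic cells or lymphocytes, 10 of 14 cytokines and 2 of 4 TNF family ligands were higher. IL6, the main inducer of acute phase proteins, was at 4.85 CPM in control, 136 in the LPS library, 269 in siOCLN+LPS and 335 in wtOCLN+LPS, 55.6-fold (44.4 to 70.6) and 69.1-fold (55.2 to 87.6) above control. The granulocyte growth factor CSF3 was 78.3-fold (63.2 to 98.3) and 70.8-fold (57.1 to 88.9) higher, from 5.29 CPM in control to 414 and 375 CPM. CCL20, which attracts dendritic cells and memory lymphocytes, went from 7.80 CPM to 590 and 606 CPM, and stood at 406 CPM in LPS. CSF2, the growth factor GM-CSF, stood at 0.566 CPM in control (9 counts), 38.9 in siOCLN+LPS and 34.2 in wtOCLN+LPS, both under the 51.8 CPM of the LPS library. CXCL10, a chemokine induced by interferon and named here after its values were seen, had 3 counts in control, 6 in the LPS library, 130 in siOCLN+LPS and 194 in wtOCLN+LPS. The list's median log2 ratio to control was 2.14 in siOCLN+LPS, 2.22 in wtOCLN+LPS and 2.16 in LPS.

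Of 29 tested NF-kB subunits and feedback genes, 20 were higher in both and none lower (median 1.87), made up of 3 of 5 subunits, 4 of 5 inhibitors and 13 of 19 further feedback genes. TNFAIP2, which topped this list, was at 114 CPM in control, 1585 in the LPS library, 3649 in siOCLN+LPS and 3328 in wtOCLN+LPS. NFKBIZ, an atypical inhibitor protein that co-activates a subset of cytokine genes, was 21.7-fold (19.0 to 25.0) and 20.6-fold (18.0 to 23.7) higher. TNFAIP3, the ubiquitin-editing enzyme A20 that shuts the pathway off, was at 61.6 CPM in control, 1242 in the LPS library, 1183 in siOCLN+LPS and 1256 in wtOCLN+LPS. The 3 LPS libraries were at much the same level for it. BIRC3, an inhibitor of cell death, and NFKBIA, which holds NF-kB in the cytoplasm, were 18.3- and 13.7-fold higher in siOCLN+LPS and 19.0- and 13.8-fold in wtOCLN+LPS.

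The LPS sensing list had 20 tested genes, 5 of the receptor complex and 15 adaptors or kinases. Of the 20, 2 were higher in both and none lower, where 3.19% of all tested genes were higher. The list median was -0.05, and it was above 0 under TMM, median ratio and upper quartile scaling. The 2 higher genes were CD14, the LPS co-receptor, at 8.37 CPM in control, 5.99 in the LPS library, 20.6 in siOCLN+LPS and 22.7 in wtOCLN+LPS, and the kinase IKBKE at 14.8, 43.4, 38.4 and 39.3 CPM. TLR4 itself, named for its role after its values were seen, was at 23.1 CPM in control, 26.2 in the LPS library, 30.7 in siOCLN+LPS and 35.4 in wtOCLN+LPS. LY96, the other subunit of the TLR4 receptor complex, had 0 counts in all 4 libraries.

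**Figure D2:**
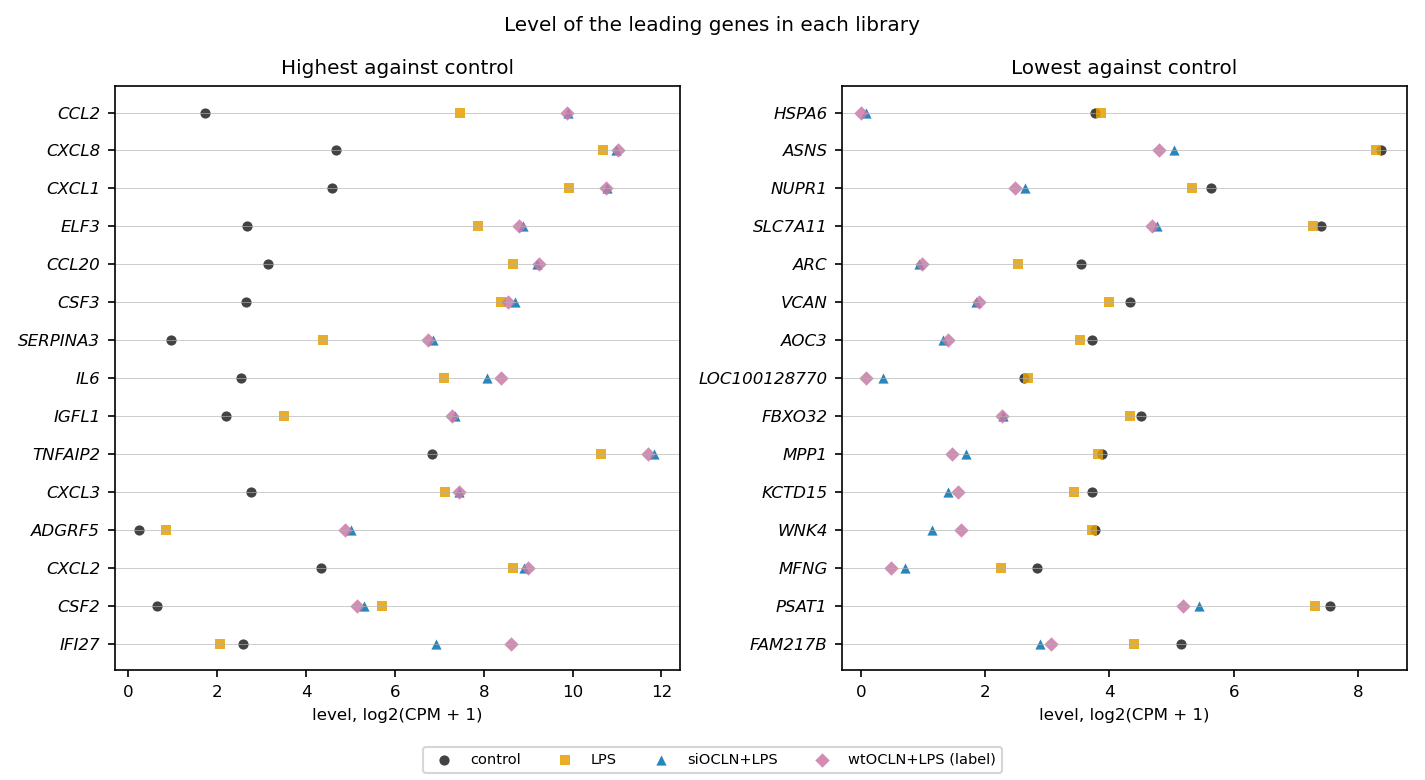
Levels, as log2(CPM + 1), in each of the 4 libraries for the 15 highest and 15 lowest genes by their ratio to control in both transfected libraries, with 1 point per library. For most of the higher genes the LPS library lies between control and the transfected libraries or beside the latter, while for IFI27 and for most of the lower genes it lies close to control.

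Several leading genes outside the cytokine lists were higher too. SERPINA3, an acute phase protease inhibitor, was at 0.944 CPM in control, 19.8 in the LPS library, 115 in siOCLN+LPS and 106 in wtOCLN+LPS. ELF3, an epithelial transcription factor, was 86.9-fold (70.3 to 109) and 82.5-fold (66.7 to 103) above control, at 5.41 CPM in control, 234 in the LPS library, 470 in siOCLN+LPS and 446 in wtOCLN+LPS. IGFL1, a small secreted protein related to insulin-like growth factors, was at 3.59, 10.4, 162 and 155 CPM in the same order. ADGRF5, an adhesion G protein-coupled receptor, had 3 counts in control, 11 in the LPS library, 550 in siOCLN+LPS and 495 in wtOCLN+LPS, ratios of 167 (56.7 to 811) and 150 (51.0 to 729). For IGFL1 and ADGRF5 the LPS library was much nearer to control than to the transfected libraries.

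Interferon-stimulated genes formed the second higher group. All 59 listed genes were tested, and 30 were higher in both libraries and none lower, with a median log2 ratio of 1.43. The number was 36 with TMM scaling and 35 with upper quartile scaling. IFI27, a mitochondrial protein strongly induced by interferon, was at 4.97 CPM in control, 3.17 in the LPS library, 121 in siOCLN+LPS and 389 in wtOCLN+LPS, 24.3-fold (19.4 to 30.9) and 78.3-fold (62.7 to 99.0) above control. IFI6, a related protein, was at 27.3, 27.5, 299 and 705 CPM. Neither gene was above control in the LPS library beyond counting error, and wtOCLN+LPS was the highest library for both. OAS2, which makes the second messenger that activates RNase L on double-stranded RNA, was at 8.06, 7.50, 71.8 and 254 CPM. MX1, a GTPase that blocks viral nucleocapsids, was at 18.2, 16.7, 144 and 488 CPM, and ISG15, a ubiquitin-like modifier whose promoter is printed above, at 17.6, 15.3, 125 and 343 CPM.

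By role, 3 of 5 RNA sensors, 3 of 4 IFIT proteins and 4 of 5 genes of the OAS and PKR group were higher in both. So were 11 of 20 antiviral effectors, 2 of 6 genes of the ISG15 system and 7 of 15 others, but 0 of 4 signalling factors. The signalling factor IRF9, chosen here for its role after its values were seen, did not pass 2-fold in both, at 29.3 CPM in control, 24.3 in the LPS library, 47.3 in siOCLN+LPS and 80.5 in wtOCLN+LPS. The list median was 1.05 in siOCLN+LPS and 1.85 in wtOCLN+LPS, against -0.09 in LPS. All 59 genes stood higher in wtOCLN+LPS than in siOCLN+LPS, by a median of 0.84 on the log2 scale, where the median over all tested genes was -0.01. The wtOCLN+LPS to siOCLN+LPS fold was 3.22 for IFI27 (3.06 to 3.38), 3.54 for OAS2 (3.32 to 3.77), 3.38 for MX1 (3.23 to 3.54) and 2.74 for ISG15 (2.60 to 2.87).

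Of 7 interferon ligands listed, only IFNE was tested, at 7.99 CPM in control, 7.57 in the LPS library, 5.38 in siOCLN+LPS and 3.14 in wtOCLN+LPS. IFNL1, a type III interferon, had 7 counts in wtOCLN+LPS (0.400 CPM, exact Poisson 95% interval 0.161 to 0.824) and 0 in control, LPS and siOCLN+LPS. IFNB1 had 1 count in wtOCLN+LPS and 0 elsewhere. IFNA1 went another way, since its highest level in the 3 libraries compared was 0.315 CPM, in control. IFNL2 reached 0.114 CPM at most in these 3 libraries, and IFNL3 and IFNG were at 0 CPM in them. These ligands were picked for their role after their values were seen, and no fold is given at these counts. Among 6 receptor genes IFNAR2, a subunit of the type I interferon receptor, was higher in both at 24.1 CPM in control, 37.6 in the LPS library, 57.4 in siOCLN+LPS and 57.0 in wtOCLN+LPS. SOCS3, which inhibits the receptors' kinases, was at 36.1, 130, 124 and 133 CPM.

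The antigen presentation genes of MHC class I had a median of 0.66 over 17 tested members. The 3 of these that were higher in both all supply peptides: the immunoproteasome subunit PSMB10 (2.38- and 2.71-fold in siOCLN+LPS and wtOCLN+LPS), the proteasome activator PSME2 (2.26- and 2.62-fold) and the peptide transporter TAP1 (2.03- and 2.38-fold). None of the 6 class I chain genes passed 2-fold in both. With TMM and with upper quartile scaling 6 members did, and with the trend on transcript length and GC content removed TAP1 no longer did.

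**Figure D3:**
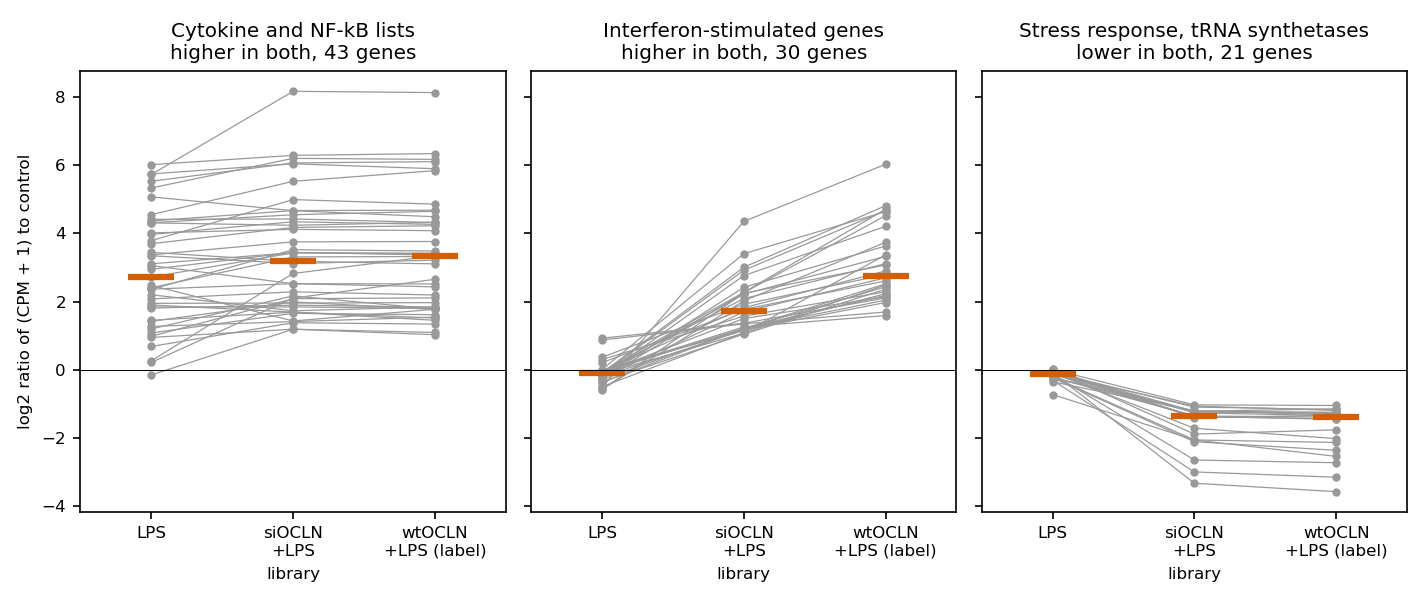
Log2 ratio of (CPM + 1) to control in the LPS, siOCLN+LPS and wtOCLN+LPS libraries for list members that passed 2-fold in both transfected libraries: 43 of the cytokine and NF-kB lists, 30 interferon-stimulated genes and 21 stress response and tRNA synthetase genes, with grey lines joining the values of 1 gene and orange bars at the medians. The genes were chosen for their change in the transfected libraries, and the LPS library shares the control, so the panels describe levels: the first group is also high in LPS, the others lie near 0 there.

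Among the gene lists described, that of the integrated stress response had the most lower members, 16 of the 473 genes lower in both libraries. Of 37 listed and tested genes, 16 were lower in both libraries and 2 higher, where 3.47% of all tested genes were lower. The list median was -0.97 (-0.74 with TMM scaling, where 10 were lower). The LPS library had a median of -0.09. ASNS, which makes asparagine and whose promoter is printed above, was at 329 CPM in control, 312 in the LPS library, 31.9 in siOCLN+LPS and 26.7 in wtOCLN+LPS, 10.3-fold (9.45 to 11.3) and 12.3-fold (11.2 to 13.6) lower than control. NUPR1, a stress-induced chromatin protein, was at 48.5, 39.1, 5.21 and 4.57 CPM. SLC7A11, the cystine importer, was at 168, 154, 26.1 and 24.6 CPM. In all 3 genes the LPS library was near control and the transfected libraries were low together.

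By role, 8 of 12 enzymes for serine, asparagine and one-carbon metabolism were lower, 3 of 8 amino acid transporters, 3 of 10 feedback or effector genes and 2 of 7 transcription factors. PSAT1, the second enzyme of serine synthesis, was 4.39-fold (4.05 to 4.76) and 5.25-fold (4.81 to 5.74) lower, from 186 CPM in control to 42.3 and 35.4 CPM. ALDH1L2, a mitochondrial folate enzyme, was 4.39-fold (3.80 to 5.10) and 6.33-fold (5.35 to 7.53) lower. The first enzyme of serine synthesis, PHGDH, named after its values were seen like the next 4 genes, was at 280 CPM in control, 264 in the LPS library, 84.6 in siOCLN+LPS and 68.4 in wtOCLN+LPS. ATF4 itself did not pass 2-fold, at 402, 403, 302 and 300 CPM, and its target CHAC1, a glutathione-degrading enzyme, was at 4.85, 5.26, 5.95 and 5.54 CPM. The 2 members that were higher were the transcription factor CEBPB (346, 539, 835 and 865 CPM) and DDIT4, an inhibitor of mTORC1 (113, 76.3, 241 and 240 CPM).

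Among 20 cytosolic aminoacyl-tRNA synthetases, which charge tRNAs and some of which are ATF4 targets, 5 were lower in both and none higher, with a median of -0.53. They were SARS, AARS, YARS, GARS and EPRS. SARS was at 345 CPM in control, 316 in the LPS library, 133 in siOCLN+LPS and 127 in wtOCLN+LPS, 2.60-fold (2.47 to 2.73) and 2.72-fold (2.59 to 2.86) lower, and AARS at 414, 391, 161 and 150 CPM. GARS and EPRS were within 2-fold with TMM scaling, which left 3 lower and a median of -0.28. The endoplasmic reticulum unfolded protein response, another branch that can meet ATF4, had 1 of 21 members lower, near the 3.47% of all tested genes. Its median was -0.27, against -0.23 over all tested genes. The lower member was the eIF2-kinase inhibitor DNAJC3 (2.40- and 2.08-fold), which also lay within 2-fold with TMM scaling.

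Heat shock genes had 3 of 23 members lower and none higher, where 3.47% of all tested genes were lower. Their median of -0.27 was near the -0.23 of all tested genes, and with TMM scaling it was -0.03, with 2 lower. HSPA6, an inducible member of the HSP70 family, had 201 counts in control, 187 in the LPS library, 1 in siOCLN+LPS and 0 in wtOCLN+LPS. The ratio in siOCLN+LPS was 221-fold lower (39.2 to 8775), and in wtOCLN+LPS it was at least 73.8-fold lower against a floor of 3 counts in that library, a bound without the counting error of the control, with which the exact interval reaches down to 59.5-fold. DNAJB4, a co-chaperone, was at 45.6, 47.6, 11.6 and 12.9 CPM. HSPA1B, at 2.26- and 2.07-fold lower, has a near-identical neighbouring gene, so its count is uncertain, and it lay within 2-fold with TMM scaling.

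Other leading lower genes came from different functions. ARC, a synaptic activity gene, was 11.7-fold (6.99 to 20.9) lower in siOCLN+LPS and 11-fold (6.68 to 19.3) in wtOCLN+LPS, at 10.7 CPM in control, 4.76 in the LPS library, 0.916 in siOCLN+LPS and 0.971 in wtOCLN+LPS. AOC3, an amine oxidase, was at 12.1, 10.5, 1.49 and 1.66 CPM. FBXO32, a ubiquitin ligase subunit of FOXO-driven atrophy, was at 21.8, 19.0, 3.89 and 3.83 CPM, and MFNG, a glycosyltransferase that modifies Notch, at 6.10, 3.75, 0.629 and 0.400 CPM. MPP1, KCTD15, WNK4, FAM217B and LOC100128770 were the others among the 15 lowest, the last at 82, 76, 5 and 1 counts. In all of these the transfected libraries lay below both control and LPS.

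**Figure D4:**
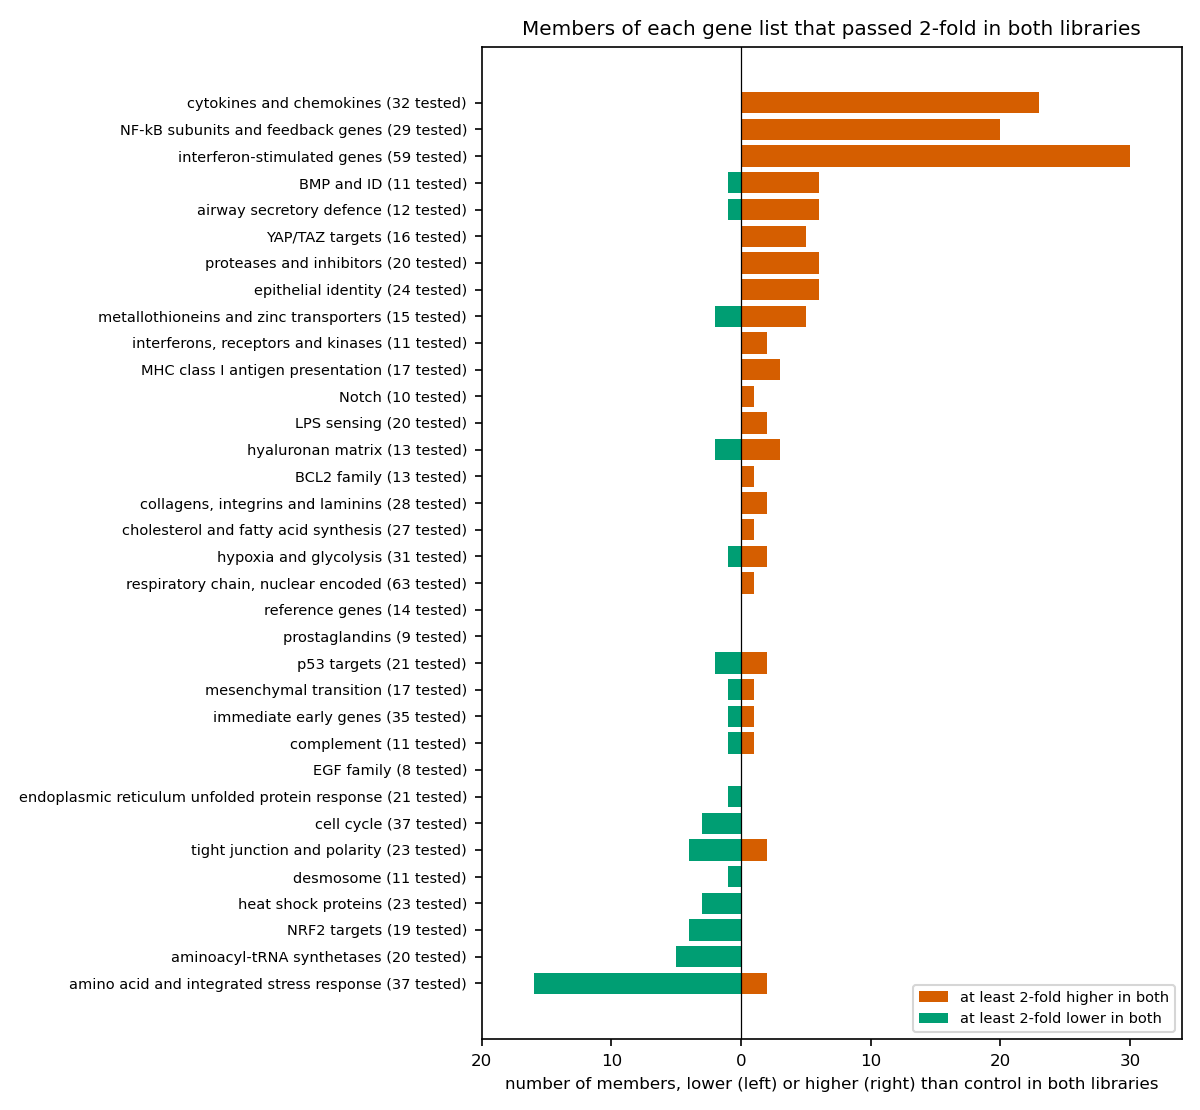
Number of tested members of each gene list that lay at least 2-fold higher (right) or lower (left) than control in both transfected libraries, with the number tested in parentheses, ordered by the net share of tested members. The longest bars are those of interferon-stimulated genes (30 higher), cytokines and chemokines (23 higher), NF-kB genes (20 higher) and the integrated stress response (16 lower), and over all genes 3.19% were higher and 3.47% lower.

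Tight junction genes did not move one way. Of 35 listed genes 23 were tested, and 2 were higher and 4 lower in both (median -0.35, or -0.10 with TMM scaling, where 2 were lower). CLDN1, a barrier-forming claudin, was at 62.2 CPM in control, 398 in the LPS library, 313 in siOCLN+LPS and 339 in wtOCLN+LPS. All 3 LPS libraries stood above control for it, and the transfected libraries were 5.04-fold (4.71 to 5.40) and 5.46-fold (5.10 to 5.84) higher than control. CLDN11, a claudin known from myelin and the testis, was at 15.7, 16.9, 51.8 and 66.6 CPM and was high in the transfected libraries alone of the 4. MARVELD2, tricellulin, which seals the corners where 3 cells meet and belongs to the protein family of occludin, was at 9.63, 9.81, 2.40 and 3.43 CPM, 4.01-fold (2.83 to 5.78) and 2.81-fold (2.07 to 3.85) lower. CLDN12 was 2.97- and 2.24-fold lower, within 2-fold with TMM scaling. CLDN9 had 44 counts in control, 15 in the LPS library and 9 in each transfected library, so it was below control in LPS as well. No scaffold or polarity gene of 11 tested passed 2-fold in both. TJP1, which encodes the scaffold ZO-1 and is named after its values were seen, was at 251, 225, 186 and 209 CPM.

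Of 33 listed epithelial genes 24 were tested, and 6 of these were higher and none lower (median 0.63). With TMM scaling 9 were higher and with upper quartile scaling 7. The epithelial genes did not all rise, since 7 of the 24 lay below control in both transfected libraries. The 9 not tested were under 1 CPM in every library compared, among them the epithelial regulators GRHL2 and ESRP1, each at 0.114 CPM or less. TP63, a basal cell transcription factor, was at 2.01 CPM in control, 2.96 in the LPS library, 12.2 in siOCLN+LPS and 21.1 in wtOCLN+LPS. The keratins KRT19 and KRT8 were 4.58- and 2.21-fold higher in siOCLN+LPS and 3.38- and 2.08-fold higher in wtOCLN+LPS, with KRT8 at 442, 372, 976 and 919 CPM. CDH1, E-cadherin, was 2.31-fold (2.11 to 2.52) and 2.29-fold (2.10 to 2.50) higher. EHF, like ELF3 an ETS factor of epithelia, was at 4.47, 6.99, 16.8 and 13.1 CPM. The desmosomal cadherin DSG2 was lower in both, at 119, 113, 50.6 and 47.8 CPM, although within 2-fold with TMM scaling. Of 17 mesenchymal genes, S100A4 was higher (4.62- and 4.50-fold) and the repressor SNAI2 lower (3.27- and 3.01-fold). Of 7 fibroblast markers, 2 reached 1 CPM in each library, with a summed level of 70.4 CPM in control, 76.7 in the LPS library, 106 in siOCLN+LPS and 111 in wtOCLN+LPS. That sum moved with PDGFRB (12.3, 13.8, 49.4 and 55.4 CPM), while DCN, LUM and COL3A1 were at or near 0 in every library. Of 7 alveolar markers, 3 reached 1 CPM in each library, and the list summed to 45.1, 47.1, 70.9 and 76.6 CPM. ABCA3 was the highest of them, and SFTPA1 was at 0 in every library. AGER, named after its values were seen, went the other way, at 8.06, 6.63, 4.01 and 3.94 CPM. The part of either marker list in the epithelial values was not tested.

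The hyaluronan matrix had members on both sides, 3 higher and 2 lower of 13 tested. PTX3, a secreted protein that cross-links hyaluronan, was at 7.36 CPM in control, 525 in the LPS library, 136 in siOCLN+LPS and 113 in wtOCLN+LPS, so it was 18.4-fold (15.3 to 22.4) and 15.4-fold (12.8 to 18.7) above control and below the LPS library. CD44, the main hyaluronan receptor, was at 31.8, 65.5, 6.58 and 7.14 CPM, 4.84-fold (3.95 to 5.98) and 4.46-fold (3.66 to 5.47) below control, while the LPS library was above control. VCAN, versican, a hyaluronan-binding proteoglycan, was at 19.1, 15, 2.63 and 2.74 CPM. The synthases HAS1 and HAS3 were both higher, HAS1 on 7 counts in control, 53 in siOCLN+LPS and 47 in wtOCLN+LPS, and HAS3 at 8.56, 6.13, 23.4 and 21.4 CPM. TNFAIP6, which transfers proteins onto hyaluronan and is named after its values were seen, was at 2.39 CPM in control, 51.8 in the LPS library, 3.43 in siOCLN+LPS and 4.34 in wtOCLN+LPS.

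**Figure D5:**
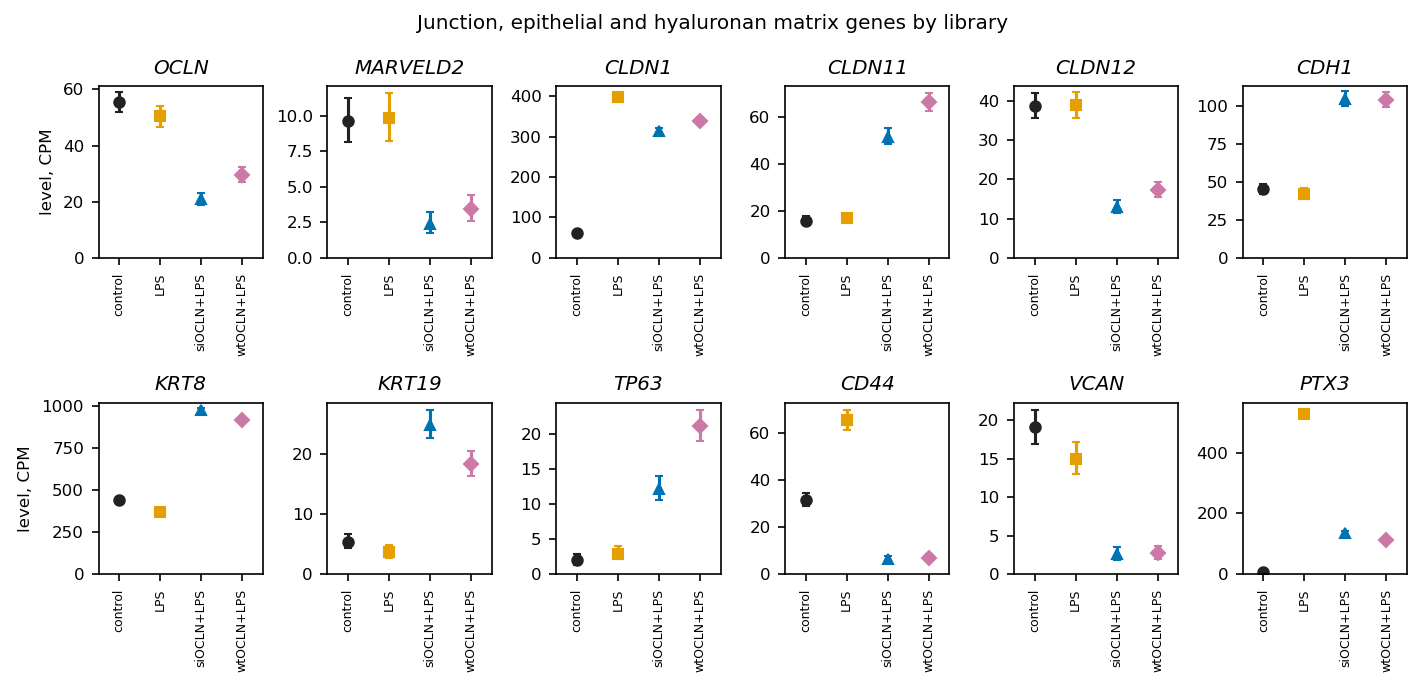
Level in CPM, with the exact Poisson 95% interval, of 12 junction, epithelial and hyaluronan matrix genes in the 4 libraries, each panel with its own vertical axis from 0. OCLN, MARVELD2, CLDN12, CD44 and VCAN are lowest in the transfected libraries, CLDN11, CDH1, KRT8, KRT19 and TP63 are highest there, and CLDN1 and PTX3 are highest in LPS.

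Of 20 tested proteases and inhibitors, 6 were higher and none lower (median 0.13), 5 of them among 9 plasminogen and clotting factors. PLAU, urokinase, was at 147 CPM in control, 398 in the LPS library, 739 in siOCLN+LPS and 707 in wtOCLN+LPS, and PLAT, tissue plasminogen activator, at 21.4, 37.6, 83.0 and 66.5 CPM. F3, tissue factor, which starts clotting, was 2.83- and 2.89-fold higher. The sixth gene was the stromelysin MMP3, with 5 counts in control, 275 in the LPS library, 86 in siOCLN+LPS and 35 in wtOCLN+LPS, so that it was lower in the transfected libraries than in LPS.

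Genes of BMP signalling, which acts through SMAD proteins on the ID genes, had 6 of 11 tested members higher and 1 lower (median 1.29). Of 18 listed genes, 7 were under 1 CPM in every library compared and not tested. Among these was the target BAMBI, named after its values were seen. It had 9 counts in control, 8 in the LPS library, 1 in siOCLN+LPS and 4 in wtOCLN+LPS. ATOH8, a BMP-induced transcription factor, was at 11.1 CPM in control, 9.59 in the LPS library, 88.6 in siOCLN+LPS and 82.1 in wtOCLN+LPS. ID3, an inhibitor of helix-loop-helix factors, was 3.30-fold (3.01 to 3.62) and 3.53-fold (3.23 to 3.87) higher, and ID2 3.47- and 3.57-fold. SMAD6, a feedback inhibitor, had 5, 9, 51 and 65 counts and was tested only because it reached 1 CPM in the transfected libraries. GREM1, a secreted BMP antagonist, was the member that was lower, with 47, 48, 6 and 1 counts. Targets of YAP and TAZ, the co-activators of the Hippo pathway, had 5 of 16 higher and none lower (median 0.49). They included the vasoconstrictor peptide gene EDN1 at 3.65, 21.2, 62.8 and 75.8 CPM, CTGF at 478, 611, 1625 and 1701 CPM, and ANKRD1 at 5.98, 7.36, 44.3 and 70.7 CPM.

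Metallothioneins, which bind zinc and copper, were higher in 5 of 6 tested, whereas 2 of 9 zinc transporters were lower. After removal of the trend on transcript length and GC content, 2 members of the joint list were higher instead of 5. MT1X was at 188 CPM in control, 273 in the LPS library, 757 in siOCLN+LPS and 742 in wtOCLN+LPS, and metallothionein genes share sequence, so reads may be split among them. SLC30A1, which exports zinc from the cell, was at 98.0, 58.9, 14.7 and 23.7 CPM, 6.66-fold (5.84 to 7.63) and 4.13-fold (3.71 to 4.62) lower. SLC39A8, which imports zinc, was at 65.1, 110, 21.5 and 23.7 CPM, lower than control in the transfected libraries and higher in LPS.

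Of 24 listed airway secretory defence genes 12 were tested, and 6 of these were higher and 1 lower (median 0.91), where 3.19% of all tested genes were higher. The 12 not tested were under 1 CPM in every library compared, among them the secretory protein genes SCGB1A1 and BPIFA1 at 0 CPM. The counts therefore describe only part of the list. The acute phase protein SAA2 was at 3.02, 30.5, 32.9 and 35.9 CPM, alike in the 3 LPS libraries, and shares sequence with SAA1, which was 2.71- and 2.89-fold higher. MUC5B, a gel-forming airway mucin, had 30, 30, 165 and 175 counts and was high in the transfected libraries alone of the 4. The antiprotease PI3, elafin, had 14 counts in control, 111 in the LPS library, 92 in siOCLN+LPS and 110 in wtOCLN+LPS. WFDC2 was lower (2.63- and 2.44-fold), within 2-fold with TMM scaling.

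In the next 4 lists the number of called members changed with the scaling. Of all tested genes 3.19% were higher and 3.47% lower on library totals. Targets of the oxidant sensor NRF2 had 4 of 19 members lower and none higher, with a median of -0.12 that was above 0 with TMM scaling, where 2 remained past 2-fold. HMOX1, which breaks down haem, was 2.57-fold (2.26 to 2.92) and 2.62-fold (2.31 to 2.99) lower, and OSGIN1 3.45- and 6.61-fold. Cell cycle genes had 3 of 37 lower (median -0.43), namely CDCA8 (2.48- and 2.62-fold), AURKA and E2F2, of which CDCA8 alone stayed past 2-fold with TMM scaling. Nuclear-encoded respiratory chain genes had 1 of 63 higher, NDUFA3, with library totals (median 0.35), 10 with TMM and none with the length and GC trend removed (median 0.16). In hypoxia and glycolysis 2 of 31 were higher and 1 lower, and 6 and 0 with TMM scaling. CA9, a carbonic anhydrase induced by hypoxia, was at 1.38, 1.08, 8.01 and 8.74 CPM, and the lactate-producing enzyme gene LDHA at 344, 344, 709 and 755 CPM.

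For the remaining lists the counts are to be read against the 6.65% of all tested genes that passed in either direction. Immediate early genes had 1 higher (KLF4) and 1 lower (SPRY4) of 35. The p53 targets had 2 higher (PLK3, BBC3) and 2 lower (ZMAT3, TIGAR) of 21, and complement 1 higher (CFB) and 1 lower (C1S) of 11. With TMM scaling SPRY4, TIGAR and C1S lay within 2-fold. The lists then had 4 higher and 0 lower, 4 and 1, and 1 and 0, in that order. Collagens, integrins and laminins had 2 higher (COL7A1, COL5A1) of 28, and cholesterol and fatty acid synthesis 1 (FADS2) of 27. Notch had 1 (DLL1) of 10 and the BCL2 family 1 (BCL2A1) of 13. With TMM scaling these lists had 3, 2, 1 and 2 higher. BCL2A1 had 1 count in control, 31 in the LPS library, 22 in siOCLN+LPS and 23 in wtOCLN+LPS. It lay within 2-fold with a pseudocount of 5. It did so too with the length and GC trend removed, where 0 BCL2 family genes were higher. None of 8 EGF family genes, 9 prostaglandin genes or 14 reference genes passed. With TMM scaling 1 prostaglandin gene and 1 reference gene were higher. For the EGF family ligand gene EREG the levels were 396, 941, 631 and 614 CPM, with LPS the highest library. The largest of the reference genes' ratios were those of PPIA, 1.75- and 1.69-fold, and PGK1, 1.57- and 1.62-fold.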

How the data were processed

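RNA from BEAS-2B cells was extracted with Trizol, and 1.3 µg of it went into each library with the NEBNext Ultra II Directional kit, per the labels' protocols. The authors deposited whole-number read counts for 24424 gene symbols, 1 file for each of 4 libraries, with no duplicate symbol. The submitters' processing notes name TopHat, Cufflinks and hg19, with no version and no role for each. Which program counted reads, with which strand setting and annotation, and how it treated reads matching several genes is not given in the sources used here, so genes that overlap, have an antisense partner or have near-identical copies are uncertain. Groups were taken from the treatment in the labels. Each group was 1 library, so no model was fitted and no p-value was computed.

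CPM was computed from the library totals, and log2((CPM + 1)/(control CPM + 1)) was taken for genes at 1 CPM or more in any of the 3 libraries compared. A count of 1 was worth 0.0571 to 0.0721 CPM. Ratios of CPM have exact Clopper-Pearson intervals and single levels exact Poisson intervals at 95%, both for counting error only, since no molecular identifiers are named. A gene at 0 counts was set to a floor of 3 counts in that library for a fold. The genes named were OCLN, the 15 highest and 15 lowest by the smaller of both ratios at CPM 5 or more (small RNA genes and readthrough symbols left out), and up to 5 called members of each list, or 2 where none was called. Others are marked in the text. The 40 lists held 900 memberships, all found. Members and lists were chosen with earlier results of these data known. Promoter motifs were counted in RefSeq promoters on GRCh38.p14, and transcript length and GC content came from GENCODE 29, which matched 12889 tested genes (94.4%). The alternatives were other pseudocounts, filters, thresholds and scalings, symbols left out, summed counts, a counting-interval rule and removal of the length and GC trend. Each transfected library alone was added after seeing the data. The steps were tested on simulated counts. One listed item is not reported here. Software was pandas 2.3.3, SciPy 1.17.1, NumPy 2.4.6 and matplotlib 3.10.9 under Python 3.11.15. TMM factors came from edgeR 4.0.16 under R 4.3.3.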

Additional observations from a re-analysis of the deposited data

How the results depend on the processing

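The reference counts are 435 genes higher and 473 lower. A pseudocount of 0.1 gave 878 lower and one of 5 gave 287 higher and 160 lower. A 1.5-fold threshold gave 977 and 2302, and a 3-fold threshold 176 and 69. TMM and median ratio scaling each gave 222 lower, with 648 higher, and upper quartile scaling 253 lower, with 593 higher. Requiring the counting interval to lie past 2-fold gave 361 higher and 297 lower. The siOCLN+LPS library alone gave 739 lower, with 535 higher. In each of these settings at least 1 of both counts lay outside 1.5 times its reference. Both counts stayed within 1.5 times in wtOCLN+LPS alone (531 and 666) and after removal of the trend on length and GC content (416 and 444). Of 121 named genes past 2-fold in both libraries, 15 were lost with TMM or median ratio scaling, 12 with upper quartile scaling, 30 with a pseudocount of 5, 57 at 3-fold, 11 with the counting-interval rule and 7 with the trend removed. The filter at CPM 5 left 114 of the 121 tested, all still past 2-fold. No named gene changed direction under any setting. Depth limits the genes with few counts: 70 of the 435 were under 1 CPM in control and 84 of the 473 were under 1 CPM in both transfected libraries. No paired analysis was possible because each group is 1 library and the labels carry no replicate numbers.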

Other observations

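Genes outside the lists were among those far above control in both transfected libraries, and these were chosen after their values were seen. NPNT, the matrix protein nephronectin, had log2 ratios of 3.69 in siOCLN+LPS and 3.78 in wtOCLN+LPS, with 0.17 in the LPS library. CLIC5, a chloride channel protein of the cell cortex, had 4.05 and 4.25, with 0.42 in LPS. BGN, the small proteoglycan biglycan, had 2.45 and 2.42, with -0.03 in LPS. FSTL3, a secreted activin inhibitor, had 2.67 and 2.49, with 0.55 in LPS. For these 4 genes the transfected libraries lay close together and LPS nearer to control.

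Over 12889 genes, which are no independent replicates, the log2 ratio to control had a Spearman rho with GC content of 0.14 in siOCLN+LPS, 0.15 in wtOCLN+LPS and -0.10 in LPS, and with transcript length of -0.12, -0.10 and 0.02. The genes share their library and its depth. Median GC content was 52.6% for the genes higher in both libraries, 49.0% for those lower and 48.5% for all. Of 75 tested readthrough symbols 1 was higher and 7 lower in both, and of 21 small RNA genes 3 were higher and none lower.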
